A study of Mus musculus with 6 samples.

Results

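The genes described here are the ligands, receptors and antagonists of the Wnt signalling pathway. They were chosen by gene symbol: every Wnt, Fzd, Sfrp and Dkk gene, together with *Wif1*, *Lrp5*, *Lrp6*, *Axin2* and *Notum*. Of the 20633 transcript entries in the table, 47 carried such a symbol. Where a gene had several entries, the entry with the highest level was kept, which left 42 genes out of 19411 genes in all. They fall into 19 Wnt ligands, 10 Frizzled receptors, 2 co-receptors, 10 secreted antagonists and the intracellular inhibitor *Axin2*.

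Wnt proteins are secreted signals that carry a lipid, attached by the enzyme PORCN and needed for binding to receptors of the Frizzled family. A Frizzled receptor together with the co-receptor LRP5 or LRP6 halts the destruction complex that degrades beta-catenin, so that beta-catenin accumulates and acts with TCF/LEF factors on target genes, of which *Axin2* is a classical one. In mouse embryonic stem cells (ESCs), activity of this pathway favours self-renewal, while many Wnt genes are otherwise known for their restricted use in the embryo, where Polycomb complexes hold a large number of developmental genes silent.

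The data are 6 nuclear RNA-seq libraries. They came from *Rybp* fl/fl;*Yaf2*-/- mouse ESCs, a line derived from an isolated colony after the paralogue *Yaf2* had been disrupted with Cas9. All 6 libraries therefore lack *Yaf2*, and all come from cells that carry loxP sites in *Rybp* and a tamoxifen-inducible Cre recombinase. In the UNT group, 3 biological replicates were left untreated, and in the OHT group, 3 biological replicates had been kept for 96 hr with the tamoxifen metabolite 4-hydroxytamoxifen (OHT, 800 nM), which activates Cre to delete *Rybp*. RYBP is a subunit of variant Polycomb repressive complex 1. The promoter that drives Cre was not given in the sources used here, and none of the 6 libraries is from OHT-treated cells without the floxed allele.

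The level analysed is the base mean, the authors' mean over all 6 libraries of counts normalised for library size. It pools UNT and OHT, so that a difference between them, a spread between replicates and the depth of each library are outside what was computed, and no test was made. As nuclear RNA retains introns, levels of genes were compared per kb of transcript span, exons and introns together. Where genes are set side by side by base mean or per kb of exons, that scale is named, and base means are not corrected for length. For genes with several entries, the shortest and the longest were compared where the shorter lay within the longer. Pairs were kept if the spans differed at least 1.2-fold and the higher base mean was at least 10. The longer entry had an equal or higher base mean in 500 of 505 pairs. The same held in 96 of the 96 pairs in which the longer entry held fewer exon bases. Per kb of exons, a count that includes introns is divided by exon length alone, so genes with long introns read higher. A percentile is the rank of a gene among all genes, with tied genes given their mean rank. The ESC label was checked first. All 8 of the 10 ESC markers that have an entry lay in the highest quartile by base mean, from *Utf1* at 1565 to *Tdgf1* at 14300, whereas the 4 mesoderm markers lay between 1.35 and 22.5, the 6 primitive endoderm markers between 7.42 and 268.5 and the 6 fibroblast markers between 1.35 and 369.3. The trophoblast marker *Tfap2c* (1131) and the neural markers *Nes* (767.8) and *Tubb3* (625.4) were higher than the rest of their lists, in which *Elf5* (5.21) and *Neurog2* (1.77) were lowest. *Rybp* had a base mean of 13983 and *Yaf2* of 3.24.

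The sequences before the transcription starts of members at both ends of the range are shown first. Each runs 5′ to 3′ over the 250 bases upstream of the start annotated by RefSeq on GRCm38.p6, with every CG dinucleotide in capitals, because CpG-rich promoters are the usual sites of Polycomb binding in ESCs. *Fzd7* was the member with the highest level per kb and *Wnt1* the one with the lowest. The 3 windows of *Wnt5b* belong to its 3 annotated starts.
Fzd7, chr1:59481897-59482146, plus strand: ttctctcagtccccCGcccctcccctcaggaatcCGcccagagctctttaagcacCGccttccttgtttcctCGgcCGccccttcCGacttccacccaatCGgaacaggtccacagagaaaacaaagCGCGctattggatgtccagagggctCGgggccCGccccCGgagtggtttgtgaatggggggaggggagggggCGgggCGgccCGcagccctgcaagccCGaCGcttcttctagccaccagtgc
Wnt1, chr15:98789607-98789856, plus strand: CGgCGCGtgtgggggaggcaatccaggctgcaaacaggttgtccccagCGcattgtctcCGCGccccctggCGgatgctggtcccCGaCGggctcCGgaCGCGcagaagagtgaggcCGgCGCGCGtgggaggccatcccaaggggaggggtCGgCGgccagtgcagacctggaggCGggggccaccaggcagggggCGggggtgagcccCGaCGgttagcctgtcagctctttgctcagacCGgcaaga
Wnt5b, upstream start, chr6:119544348-119544597, minus strand: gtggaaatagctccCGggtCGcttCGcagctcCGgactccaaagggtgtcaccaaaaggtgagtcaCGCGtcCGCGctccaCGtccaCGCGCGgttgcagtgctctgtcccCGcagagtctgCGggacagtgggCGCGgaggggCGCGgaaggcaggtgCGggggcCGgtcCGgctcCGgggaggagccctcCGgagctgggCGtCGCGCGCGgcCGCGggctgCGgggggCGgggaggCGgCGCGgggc
Wnt5b, middle start, chr6:119467212-119467461, minus strand: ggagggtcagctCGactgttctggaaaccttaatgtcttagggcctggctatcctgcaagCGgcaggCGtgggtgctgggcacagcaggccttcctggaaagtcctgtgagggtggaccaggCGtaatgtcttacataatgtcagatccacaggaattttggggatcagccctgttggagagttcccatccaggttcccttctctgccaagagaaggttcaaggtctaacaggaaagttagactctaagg
Wnt5b, downstream start, chr6:119449387-119449636, minus strand: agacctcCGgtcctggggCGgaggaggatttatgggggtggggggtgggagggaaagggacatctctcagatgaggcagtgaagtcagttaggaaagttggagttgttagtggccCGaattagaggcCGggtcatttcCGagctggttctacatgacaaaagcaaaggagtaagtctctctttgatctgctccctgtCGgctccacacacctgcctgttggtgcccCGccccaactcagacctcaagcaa

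The window of *Fzd7* holds 17 CG dinucleotides, an observed to expected ratio of 0.649, and that of *Wnt1* holds 23, a ratio of 0.735. Both ratios exceed the median of 0.6 over the 18833 windows of genes in the table, although the levels of these genes lie at opposite ends of the range. The *Wnt5b* windows differ among themselves, with ratios of 1.02 at the upstream start, 0.231 at the middle start and 0.372 at the downstream start. A window was found for 27 of the 42 members (64.3%), which is under the 80% set for a statement on the group, and the share of CpG-rich promoters among all members is therefore void.

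Across the 42 members the median base mean was 83.6, at percentile 39.9 of all genes, and the median for all genes was 226.8. Per kb of span the members' median was 5.23 against 11.1 for all genes, at percentile 41.4. Roles differed widely. The median per kb of span was 1.93 for the Wnt ligands, 37.8 for the Frizzled receptors, 41.2 for the co-receptors and 6.47 for the secreted antagonists. Per kb of exons these medians were 10.5, 94.0, 604.3 and 45.0, so that the distances between roles depend on the length scale. By base mean 13 of 42 members exceeded the median gene. On the span of 12 members another annotated gene lies, mostly on the opposite strand, and without these 12 the count was 7 of 30. Against genes with a base mean above 0 it was 8 of 42. In all, 6 members were under 10 normalised counts, a share of 14.3% against 24.97% of all genes. In bulk RNA, a low level in every cell and a high level in a few cells cannot be told apart.

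**Figure D1:**
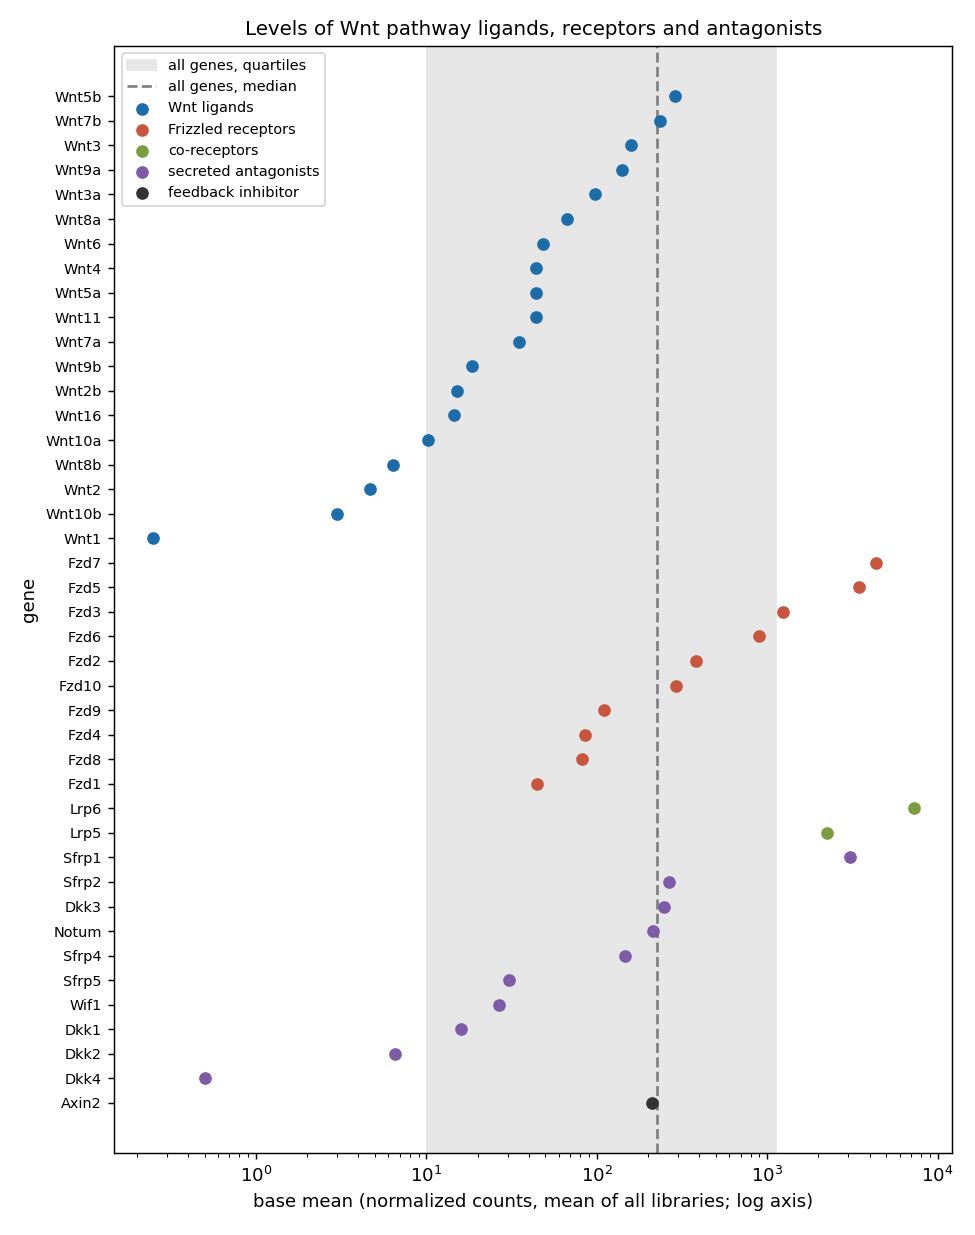
Base mean of each of the 42 members (points, 1 per gene, as the authors' mean over all 6 libraries, on a log axis), grouped by role, with the quartiles (10.1 to 1134) and median (226.8) of all genes as grey band and dashed line. *Lrp6* reaches 7271 and *Fzd7* 4343, while all Wnt ligands lie at or under 287.2.

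Among the Frizzled receptors, the membrane proteins that bind Wnt ligands, *Fzd7* and *Fzd5* had the highest RNA levels. *Fzd7*, a receptor known in ESCs and in gastrulation, is a single-exon gene (mm10 chromosome 1, 59482424 to 59486955, plus strand). Its base mean was 4343 (percentile 93.6), or 958.3 per kb of span, at percentile 99.3 of all genes with a span. Per kb of exons it was at percentile 89.9. *Fzd5*, needed in the yolk sac and the eye, is a gene of 2 exons (chromosome 1, 64730558 to 64737751, minus strand). It had a base mean of 3463 (percentile 91.4), or 481.4 per kb of span, at percentile 98.4. Per kb of exons *Fzd5* was at percentile 79.4. *Fzd7* accounted for 54.4% and *Fzd5* for 27.3% of the summed level per kb of the 10 receptors. These shares were 46.9% and 24.5% per kb of exons.

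The remaining Frizzled genes followed at a distance. *Fzd2* had 104.2 normalised counts per kb of span and *Fzd10* had 90.2. *Fzd9* reached 47.8 per kb. The multi-exon genes *Fzd6* (27.9 per kb) and *Fzd3* (17.8 per kb), both known from planar cell polarity, had base means of 896.4 and 1246 over spans of 32.2 and 70.02 kb. The lowest levels per kb were those of *Fzd8* (13.7), *Fzd1* (10.6) and *Fzd4* (9.73), the last of which also serves as the receptor of Norrin in retinal vessels. None of the 10 receptors was in the lowest quartile of all genes by base mean, and 8 exceeded the median gene per kb. A single exon was annotated for 6 of the 10 receptors, against 5.76% of all genes with a span. Per kb of exons instead, 5 of 10 receptors exceeded the median gene.

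Both co-receptors exceeded the median gene on each scale. *Lrp6* (chromosome 6, 134446476 to 134566913, minus strand) had the highest base mean of all members, 7271 (percentile 97.3), and 60.4 normalised counts per kb (percentile 79.4). *Lrp5* (chromosome 19, 3584828 to 3686556, minus strand) had a base mean of 2231 (percentile 85.7) and 21.9 per kb (percentile 59.9). *Lrp6* was above *Lrp5* on both length scales, with 73.3% of their summed level per kb of span and 64.2% per kb of exons.

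**Figure D2:**
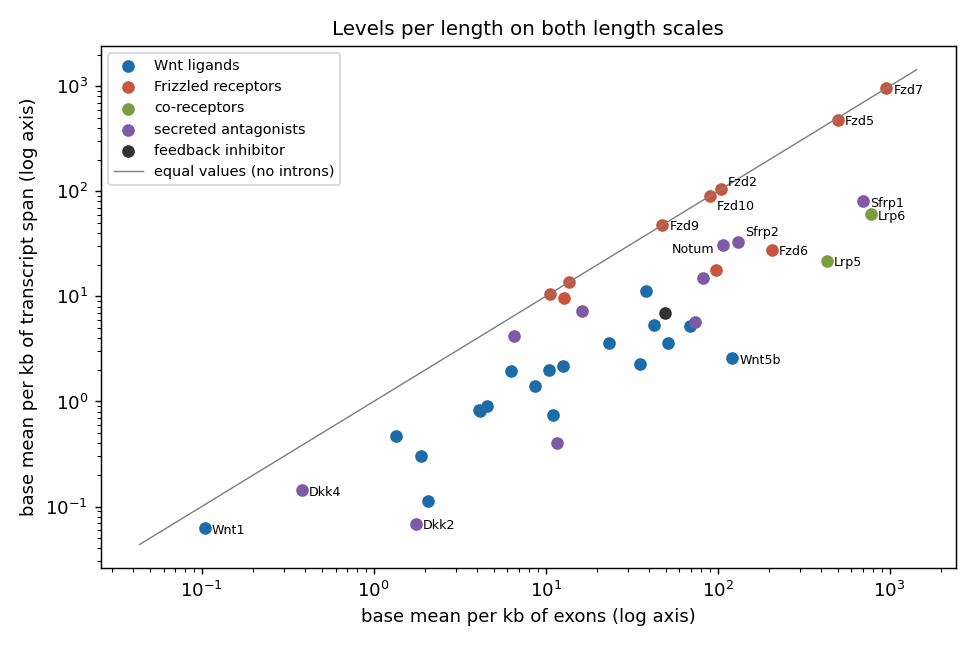
Base mean per kb of transcript span (vertical, log axis) against base mean per kb of exons (horizontal, log axis) for the 42 members, 1 point per gene coloured by role; the grey line marks genes without introns. *Fzd7* leads on both scales (958.3), *Fzd5* comes next per kb of span, and *Wnt5b* falls from 121.1 per kb of exons to 2.57 per kb of its 111.8 kb span.

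The Wnt ligands were low as a group. By base mean 2 of the 19 ligands exceeded the median gene, 4 were in the lowest quartile and 0 were in the highest. A quartile holds 25% of all genes by definition, and the 4 of 19 in the lowest did not exceed that share. Per kb of span 1 of 19 exceeded the median gene. *Wnt8a*, a ligand of the early embryo, had the highest level per kb of span among them, 11.3 (base mean 67.1), when the upstream start of *Wnt5b* is used. The highest entry of *Wnt5b* would exceed *Wnt8a* and the median gene only if it ran from the downstream start, at 17.0 per kb. A separate, lower entry of *Wnt5b* is annotated from that start, with a base mean of 59.8, or 3.55 per kb. *Wnt9a* followed at 5.29 per kb and *Wnt7b*, a ligand known from lung and placenta, at 5.17. *Wnt3*, required for the primitive streak to form, had 3.61 per kb and a base mean of 158.0. *Wnt6* had 3.59 per kb. *Wnt3a*, the close relative of *Wnt3* that is widely used to stimulate the pathway in culture, had 2.29 per kb and a base mean of 98.0.

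*Wnt5b*, *Wnt11* and *Wnt5a* are known mainly for signalling without beta-catenin. *Wnt5b* had 2.57 normalised counts per kb of span from its upstream start, and it was the highest ligand by base mean (287.2) and per kb of exons (121.1). *Wnt11* had 2.18 per kb of span and *Wnt5a* had 1.93. *Wnt4*, which acts in kidney and gonad, had 1.98 per kb. Below them came *Wnt16* (1.41 per kb), *Wnt2b* (0.909), *Wnt9b* (0.826), *Wnt10a* (0.811) and *Wnt7a* (0.740). Of these, *Wnt7a* had the longest span, 47.4 kb, and a base mean of 35.1. Base means under 10 were found for *Wnt8b* (6.35), *Wnt2* (4.69), *Wnt10b* (3.01) and *Wnt1* (0.247). *Wnt1*, which acts in the midbrain of the embryo, had 1.48 normalised counts in sum over the 6 libraries, so that its place below *Wnt10b* rests on very few reads.

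*Wnt5b* was the ligand with the highest base mean, and its value depended on which entry was read. Its 3 entries had base means of 287.2, 70.3 and 59.8. The annotation gives the span from the upstream start, 119432531 to 119544347 of chromosome 6 (minus strand), for both of the higher entries, so the start of at least 1 of them is uncertain. Measured from the upstream start, the highest entry had 2.57 normalised counts per kb. If all of its 287.2 counts fell within the shorter spans, it would have 8.28 from the middle start and 17.0 from the downstream start. The entry annotated over the span from the downstream start, the lowest of the 3, held 59.8 normalised counts, not 287.2, or 3.55 per kb. The entry of 70.3 would have 0.628 per kb if it ran from the upstream start. *Fbxl14*, a gene of the opposite strand, lies from 119479668 to 119482630, within the longest of these spans and outside both shorter spans. Its base mean, 621.8, is above the 287.2 of the highest *Wnt5b* entry. The libraries keep strand, but whether the counting used it was not given in the sources used here, and the part of *Fbxl14* reads in the *Wnt5b* value was not tested. For the other ligands with several entries the base means lay close together. They were 43.8 and 38.1 for *Wnt11*, 43.9 and 42.0 for *Wnt5a* and 234.3 and 227.4 for *Wnt7b*. Per kb of span the same entries had 2.18 and 2.56 for *Wnt11*, 1.93 and 2.99 for *Wnt5a* and 5.17 and 5.46 for *Wnt7b*. The places of these genes among the ligands per kb therefore depend on the entry kept.

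A sequence bound by TCF/LEF factors, CTTTGAT, was searched on both strands of the windows. It was found in 2.80% of all windows and in those of 2 of the 27 members with a window, *Wnt11* and *Wnt5b*. These are the only members with several windows, so the count of members cannot be set directly beside the share of windows. In *Wnt5b* the match begins 71 bases before the downstream start, within the window printed above. In *Wnt11* it lies on the opposite strand and begins 51 bases before the upstream start, shown here with the match in capitals.
Wnt11, upstream start, chr7:98834862-98835111, plus strand: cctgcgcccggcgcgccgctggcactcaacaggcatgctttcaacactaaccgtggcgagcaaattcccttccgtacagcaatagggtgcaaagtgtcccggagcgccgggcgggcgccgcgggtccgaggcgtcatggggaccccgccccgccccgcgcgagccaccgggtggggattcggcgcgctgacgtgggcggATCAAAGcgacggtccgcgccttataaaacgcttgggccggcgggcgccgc

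The related letters CTTTGAA occurred in 3.85% of all windows and, among members, in that of *Dkk1*. TATAAA, the letters of a TATA box, occurred in 9.12% of all windows. Of the 27 members with a window it occurred in 5, *Dkk1*, *Dkk2*, *Fzd1*, *Wif1* and *Wnt11*. This count of members, too, cannot be set directly beside the share of windows. No match for CTTTGAT or CTTTGAA was found in the window of *Axin2*, which covers 250 bases only.

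Of the ligand genes, 8 lie in 4 pairs of close neighbours on mm10, with 0 protein-coding genes between them. *Wnt9b* and *Wnt3* on chromosome 11 are 24.3 kb apart and transcribed away from each other, and *Wnt3* had 4.37 times the level per kb of *Wnt9b*. *Wnt3a* and *Wnt9a*, also on chromosome 11, are 16.2 kb apart in the same arrangement, and *Wnt9a* was 2.31 times as high as *Wnt3a* per kb. *Wnt10b* and *Wnt1* on chromosome 15 are 11.7 kb apart, again head to head, with 0.470 and 0.0622 normalised counts per kb. *Wnt6* and *Wnt10a* on chromosome 1 follow each other on the plus strand at 6.19 kb, and the upstream gene *Wnt6* was 4.43 times as high per kb. Per kb of span the genes of each of the 4 pairs differed by more than 2-fold. For *Wnt3a* and *Wnt9a* the levels lay closer on the other scales, at 35.5 and 42.4 per kb of exons and at 98.0 and 140.8 by base mean. These ratios carry no replicate error, and that of *Wnt10b* to *Wnt1* rests on few reads.

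**Figure D3:**
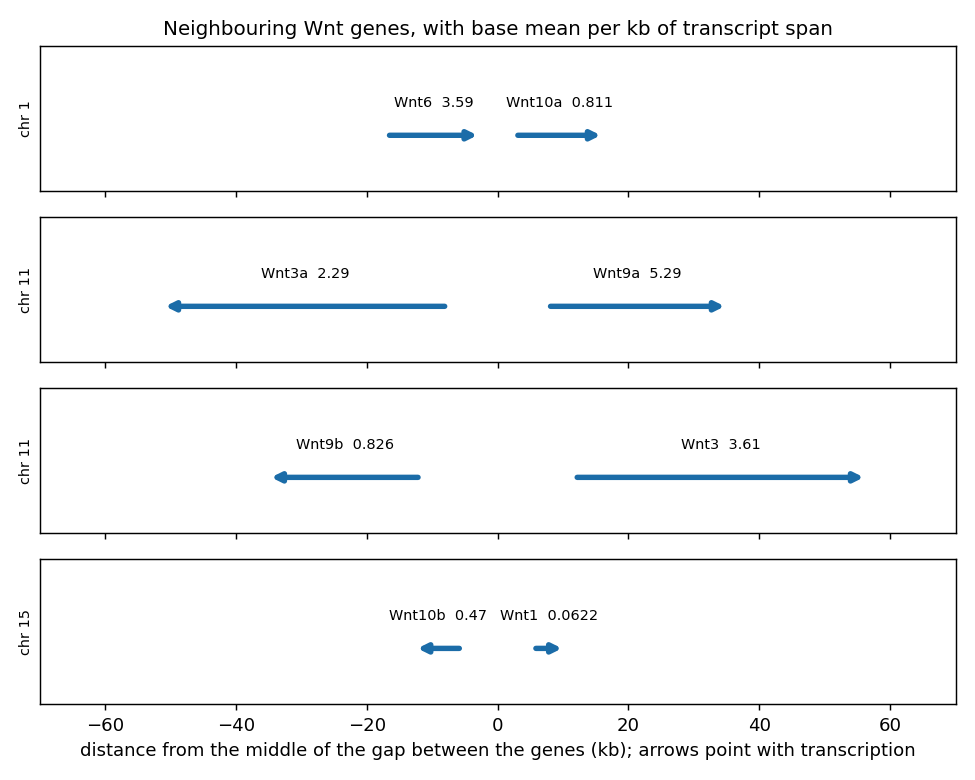
The 4 pairs of neighbouring Wnt genes drawn to scale (horizontal axis, distance in kb from the middle of the gap between the genes), with arrows in the direction of transcription and the base mean per kb of span beside each name. The pairs on chromosomes 11 and 15 point apart, the pair on chromosome 1 points the same way, and the levels range from 0.0622 for *Wnt1* to 5.29 for *Wnt9a*.

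Of the secreted antagonists, *Sfrp1* had the highest level on each scale. SFRP proteins resemble the ligand-binding part of Frizzled receptors and bind Wnt proteins outside the cell. *Sfrp1* (chromosome 8, 23411502 to 23449632, plus strand) had a base mean of 3064 (percentile 90.01), or 80.4 per kb. *Sfrp2* had 33.1 normalised counts per kb, *Sfrp4* had 15.1 and *Sfrp5* had 7.18. *Sfrp1* made up 45.5% of the summed level per kb of the 10 antagonists and 61.9% per kb of exons. *Notum*, an enzyme that removes the lipid from Wnt proteins, had 30.5 per kb with a base mean of 215.0, and it shares its span with 2 annotated antisense genes.

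*Dkk1*, *Dkk2*, *Dkk4* and *Wif1* were below the median gene on each scale, and *Dkk3* was above it by base mean only. DKK1, DKK2 and DKK4 bind LRP5 and LRP6 and keep them from the receptor complex, while DKK3 is a divergent member of the family. *Dkk3* had a base mean of 248.1 (percentile 51.0), or 5.76 per kb (percentile 42.4). *Dkk1* had 15.9, or 4.19 per kb. *Dkk2* (6.52) and *Dkk4* (0.502) had base means under 10, and *Dkk4* had 3.01 normalised counts in sum over all libraries. *Wif1*, which binds Wnt ligands directly, had a base mean of 26.6 over a span of 66.7 kb, or 0.398 per kb.

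*Axin2* encodes a scaffold of the destruction complex and is induced by the pathway that it restrains. The gene has 11 exons (chromosome 11, 108920349 to 108950783, plus strand). Its base mean was 210.9, at percentile 49.1, and its level was 6.93 normalised counts per kb, at percentile 44.4. The constitutive scaffold *Axin1* had 37.0 per kb, above *Axin2* on this scale. An antisense gene, *Gm11670*, is annotated across *Axin2*.

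Other genes of the pathway were taken from lists by function that hold 47 genes, all of which have an entry. Their median level per kb was 24.9, at percentile 62.2, and 33 of 47 exceeded the median gene on this scale. The 8 genes of the destruction complex were all above it, from *Btrc* (18.8 per kb), which marks beta-catenin for degradation, to the tankyrase *Tnks2* (372.1 per kb), which marks AXIN proteins. Of 8 transducers 7 were above it, with beta-catenin itself, *Ctnnb1*, highest at 460.6 per kb and *Pygo1* lowest at 4.04. Among the TCF/LEF factors *Tcf7* (28.8 per kb) was highest and *Lef1* (8.49 per kb) lowest, and *Tcf7l1* had the highest base mean, 4550. *Porcn* had 62.2 per kb and *Wls*, the carrier of Wnt proteins to the cell surface, had 11.3.

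The R-spondin module, which controls how many Frizzled receptors stay at the cell surface, was divided. Its receptor *Lgr4* had 87.2 normalised counts per kb, and the ubiquitin ligase *Znrf3*, which removes Frizzled receptors, had 35.3. Both exceeded the median gene. The other 7 genes of the module did not, among them the related ligase *Rnf43* (2.16 per kb) and the ligand *Rspo2*, the lowest at 0.151.

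**Figure D4:**
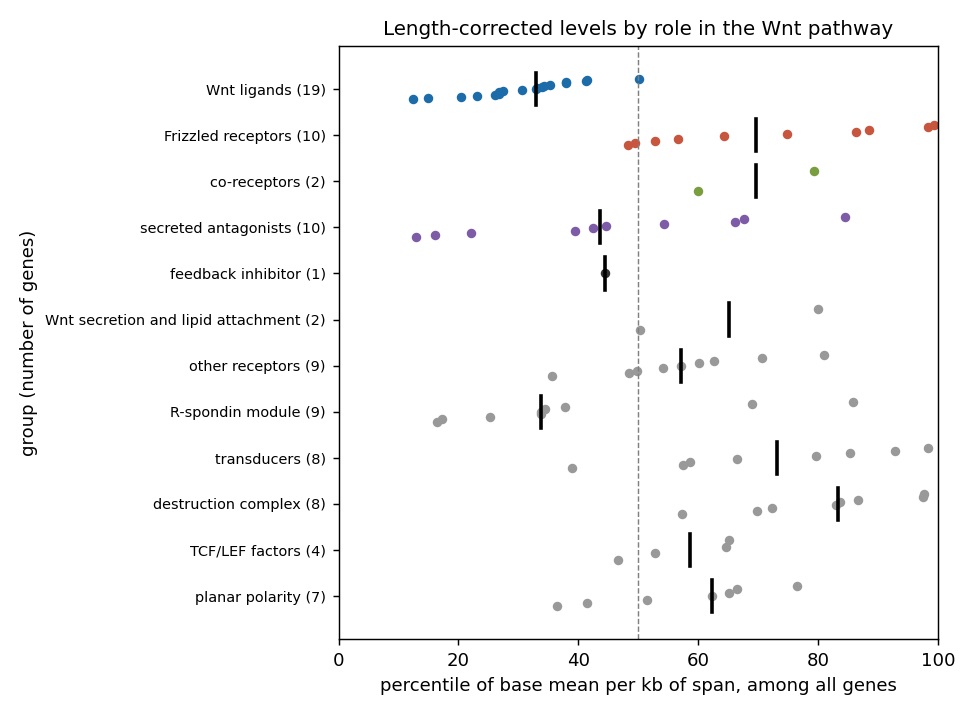
Percentile of base mean per kb of transcript span among all genes (horizontal axis) for each member and each gene of the pathway lists (points), by role, with the number of genes in brackets and a black bar at each median. Wnt ligands (median 33.0) and the R-spondin module (33.8) lie to the left of the dashed line at 50, and the destruction complex (83.3) and transducers (73.0) lie to the right of it.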

How the data were processed

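Nuclear RNA-seq libraries were compared by the authors, who filtered rRNA reads with bowtie2 and mapped the remainder to mm10, first by STAR and afterwards by bowtie2. The authors counted reads over a non-redundant refGene set with a custom script, and the authors applied DESeq2 to these counts. The deposited base mean is a signal, the mean over the 6 libraries of counts that the authors normalised for library size. The other 6 value columns hold the authors' own comparison (log2 fold change, its error, a statistic, p-values and a call) and were not used. The count test planned for counts per library was therefore not run, and each library's depth is unknown.

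Gene symbols for the entries came from RefSeq (GRCm38.p6, 20450 of 20633 entries) and then also GENCODE M21 (20560), both on the assembly of mm10, and 1 entry per symbol was kept. Spans and exons came from GENCODE transcripts matched by RefSeq identifier (98.3% of genes). Promoter windows came from RefSeq. Protein sequences were not used here. Every member was named, together with the highest and lowest gene of each pathway list and, chosen after their values were seen, *Tcf7l1*, *Axin1*, *Znrf3*, *Rnf43*, *Ror2*, *Lrp4*, *Kremen1*, *Kremen2*, *Fbxl14* and single marker genes. Members and lists were chosen with earlier results of these data known. Alternatives covered the genes ranked against, the entry kept and the length scale. Python 3.11.15 with numpy 2.4.6, pandas 2.3.3, scipy 1.17.1 and matplotlib 3.10.9 was used, and the functions were tested on simulated data.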

Additional observations from a re-analysis of the deposited data

How the results depend on the processing

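No paired analysis was possible because the level used is a mean over all libraries, and so the planned fits on counts, with other normalization or filters, with a replicate block or without single replicates, were not run. The share of CpG-rich promoters was not computed under other thresholds, since too few members have a window. A median percentile was taken to have moved when it left the 95% binomial interval of the median over the members. The ranking of roles by median percentile, ligands below antagonists below Frizzled receptors, was the same under all 7 alternatives. Ranked only against genes with a base mean of at least 10, which also drops 6 members, the median percentile was 24.7 for all members instead of 39.9 and 13.1 for the Wnt ligands instead of 34.8. The number of members above the median gene, 13 by base mean, was 8 against genes above 0, 7 against genes of at least 10 and 7 when the 12 members that share their span with another annotated gene were left out, an alternative chosen after seeing the data. Of the 10 members with the highest level per kb of span, 8 were among the 10 highest per kb of exons and 7 by base mean alone. Depth limits *Wnt1* and *Dkk4*, with 1.48 and 3.01 normalised counts in all.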

Other observations

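Receptors outside the Frizzled family and the genes of planar cell polarity were mostly above the median gene per kb of span in these cells. Of the 9 other receptors, all but *Ror1*, *Kremen2* and *Lrp4* exceeded it. *Ptk7*, a co-receptor in planar cell polarity, was highest with 65.8 normalised counts per kb, and *Ror1* was lowest with 2.64 per kb and a base mean of 921.1. *Ror2*, a receptor of WNT5A, had 18.5 per kb. *Kremen1*, which acts with Dickkopf proteins to remove LRP6 from the cell surface, had 14.9 per kb, and *Kremen2* had 9.84.

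Of the 7 genes of the planar polarity core, 5 exceeded the median gene per kb of span. *Vangl1* was highest at 52.2 normalised counts per kb and *Prickle2* lowest at 3.00. These values are means over UNT and OHT together.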
